A study of Homo sapiens with 6 samples.

Results

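Drug and steroid metabolising enzymes were examined as a group in the cell line NCI-H2023, which was derived from a human lung adenocarcinoma. The group was defined by gene symbol alone: cytochrome P450 genes of families CYP1 to CYP4, UDP-glucuronosyltransferases UGT1A, UGT1B, UGT2A and UGT2B, sulfotransferases (SULT), alcohol dehydrogenases ADH1 to ADH7, the esterase AADAC and the steroid sulfatase STS. It held 58 of the 21448 probe sets on the array, which stand for 57 of the 17687 genes tested. All cells were reverse transfected with 0.5 nM of a small RNA using a cationic lipid reagent, and the medium was replaced at 24 h. The RNA was a mimic of miR-223-3p, a mimic of miR-29a-3p or a control. The titles name the control a mimic control, whereas the transfection protocol speaks of an siRNA. Each of the 3 groups had 2 samples, A and B, and nothing in the labels says that A and B were separate cultures, so p-values measure the spread between these samples only. The model is 1 cell line, and the labels give no time of harvest.

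These enzymes chemically alter drugs, pollutants, steroids and fatty acids. P450 enzymes oxidise them with electrons from a reductase and from cytochrome b5, alcohol dehydrogenases convert alcohols to aldehydes, and AADAC hydrolyses esters and amides. UGT and SULT enzymes then attach glucuronic acid or sulphate, which usually makes the product easier to excrete, and STS removes sulphate from steroids and so returns them to an active form. Many of the P450, UGT and ADH genes are known for their high level in liver, while CYP1B1, CYP2S1 and several CYP4F genes are known from epithelia outside the liver.

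The mimics act through their seed, bases 2 to 8 of the mature strand, which pairs with messenger RNA. The mature sequences from RefSeq (GRCh38.p14) are shown 5′ to 3′ with the seed in capitals because every comparison below is between these RNAs or against the control. The natural mature strands are encoded at chrX:66018937-66018958 (plus strand) and chr7:130876748-130876769 (minus strand), in this order.
miR-223-3p: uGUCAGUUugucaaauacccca
miR-29a-3p: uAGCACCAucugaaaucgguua
The seeds differ. Seed matches in the 3′ ends of the members' transcripts were not analysed here.

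The 6 arrays had medians from 6.21 to 6.23 on the log2 scale, and samples A and B of a group correlated across genes at 0.9938 to 0.995. Keratins KRT7, KRT8 and KRT18 had control means of 16.36 to 17.34 and EPCAM one of 10.32. The lung lineage factor NKX2-1 read 4.91 and 5.04 in the control samples, and the alveolar markers NAPSA and SFTPC had means of 3.785 and 3.92. Of 19 measured hepatocyte markers 6 lay above the dim-signal line defined below, including the fibrinogen chains FGA, FGB and FGG at 15.69 to 16.68 and CPS1 at 16.715. Of 19 measured markers in the list for lung adenocarcinoma, alveolar and club cells 12 lay above that line. This lung list also holds the keratins and EPCAM. So the defining keratins of an epithelial line were present and some liver genes were bright. The alveolar markers NAPSA and SFTPC were dim, but they are only part of a lung list with 12 of 19 genes above the line. The 2 control values of NKX2-1 lay on either side of that line (4.944). The mean of the hepatocyte list was 6.77 to 6.81 in control, 6.62 to 6.65 with miR-223-3p and 6.72 to 6.82 with miR-29a-3p. With the intensity trend described below, the hepatocyte markers FGB (-0.61) and FGA (-0.395) were called lower with miR-223-3p against control. In the same comparison EPCAM (1.14) and KRT19 (0.82) of the lung list and MUC13 (0.875) of a list for intestinal epithelium were called higher. With miR-29a-3p against control the hepatocyte marker ALB (-1.54) was called lower and the leukocyte-list gene CD68 (0.665) higher. Between the mimics EPCAM (-0.99) and CDH1 (-0.87) were called lower and FGB (0.51), FGG (0.375) and CD68 (0.745) higher with miR-29a-3p. The part of such markers in the enzyme results was not tested. In cells assayed in bulk, fewer cells of a kind and less RNA per cell cannot be told apart.

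In control cells most of these enzymes were dim. As a guide to dim signal the 349 olfactory receptor genes on the array were used, which a lung carcinoma line is not known to express. Their control means had a median of 3.35 and a 95th percentile of 4.944. Of the 57 enzyme genes 20 lay above that 95th percentile, 18 between the median and the 95th percentile and 19 below the median. This is 35.1% above the line, against 63.8% of all genes. Probe sets differ in efficiency, so these bands describe signal and do not rank transcripts.

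Among the P450 genes, 12 of 31 lay above the line. CYP4F11, a fatty acid hydroxylase, read 15.45 and 15.31 in the control samples. Its chromosome 19 neighbours CYP4F2 (12.60 and 12.78) and CYP4F3 (12.58 and 12.52), which hydroxylate vitamin K and leukotriene B4 respectively, were also bright. CYP1B1, which oxidises oestradiol and polycyclic hydrocarbons, read 12.69 and 12.68, and CYP2S1, an epithelial P450, 11.52 and 11.36. CYP4V2, a fatty acid hydroxylase mutated in a crystalline retinal dystrophy, read 9.30 and 9.18, and CYP2R1, a vitamin D 25-hydroxylase, 8.27 and 7.64. CYP2U1 (6.48 and 6.72), CYP4F12, CYP2D6, CYP3A5 and CYP2J2 made up the rest, with control means from 5.495 to 6.60. Of the classical liver enzymes, CYP3A4, CYP2E1, CYP2C8, CYP1A2, CYP2A6 and CYP2B6 had control means from 2.915 to 3.385, under the dim-signal line of 4.944. CYP1A1, which is induced by the aryl hydrocarbon receptor like CYP1B1, was dim at 4.11 and 3.40. The CYP4F genes are near-identical copies in part, as are CYP2A6 and CYP2A7, so their probe sets may share signal. CYP2D6 has a second probe set, left out of the fit, whose control mean was 4.955 against 6.205 for the one used.

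The conjugating and alcohol-oxidising families were dim with few exceptions. Only UGT2B4, which glucuronidates bile acids, lay above the line among 7 measured UGT genes, all of them UGT2B, with 5.61 and 5.15 in control. Of 10 SULT genes 3 did: SULT1A1, a phenol sulfotransferase, at 8.51 and 8.73, SULT2B1, which sulphates hydroxysteroids and cholesterol, at 5.86 and 6.20, and SULT4A1, a brain-enriched member, at 5.62 and 5.30. Of 7 ADH genes ADH5 and ADH6 did. ADH5, the widely expressed glutathione-dependent formaldehyde dehydrogenase, read 11.40 and 11.53, and ADH6, a class V dehydrogenase known mainly from liver, 7.94 and 7.39. AADAC read 6.62 and 6.19 and STS 6.12 and 6.87.

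**Figure D1:**
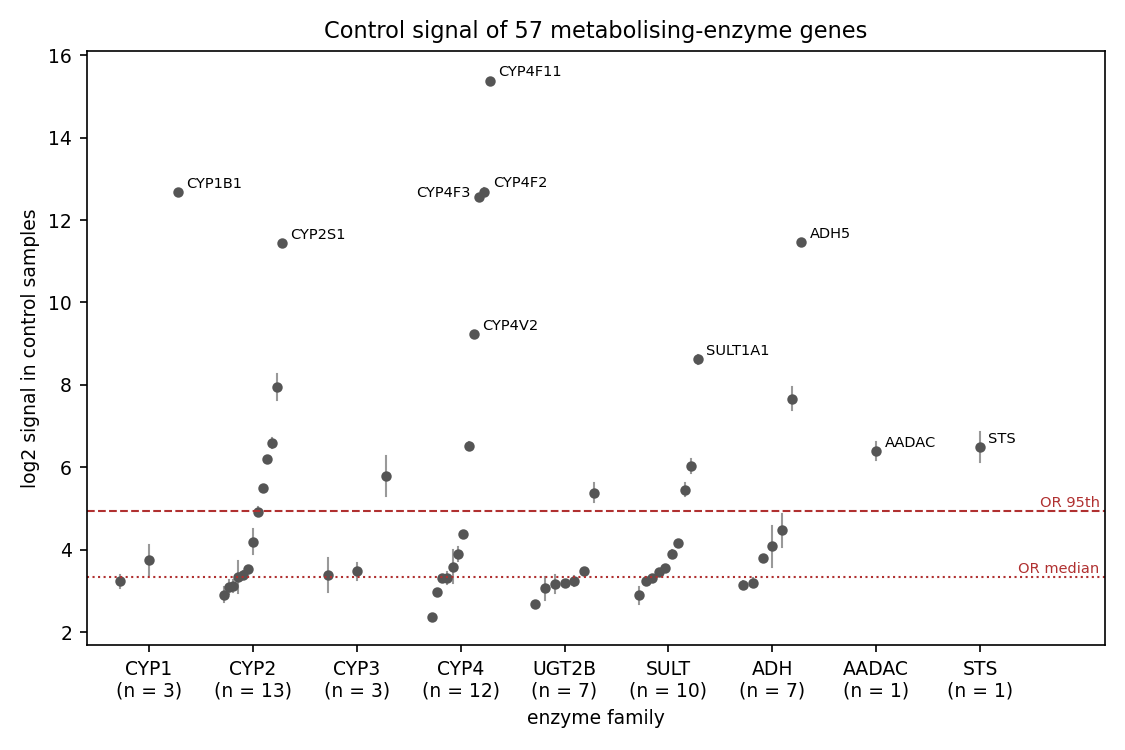
Control signal (log2) of the 57 enzyme genes by family; points are means of control samples A and B, vertical lines join the 2 samples, and red lines mark the median (3.35) and the 95th percentile (4.944) of 349 olfactory receptor genes. Most points lie under the dashed line, and CYP4F11, CYP4F2, CYP4F3, CYP1B1, CYP2S1 and ADH5 lie above 11.

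With limma's constant variance prior, adjusted over all genes at 0.05, no enzyme gene passed in any comparison. The unadjusted p was below 0.05 for 2 members with miR-223-3p against control (3.51%, against 7.59% of all genes), 6 with miR-29a-3p against control (10.5%, against 8.86%) and 8 between the mimics (14.0%, against 10.3%). In the fit whose prior follows the signal level, called the intensity trend, 4 genes passed: STS was higher with miR-223-3p, ADH6 and CYP1B1 were lowest in the miR-29a-3p group, in both of its comparisons, and AADAC differed between the mimics, with the higher values under miR-29a-3p. The comparisons share samples, so the calls are not independent of each other.

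**Figure D2:**
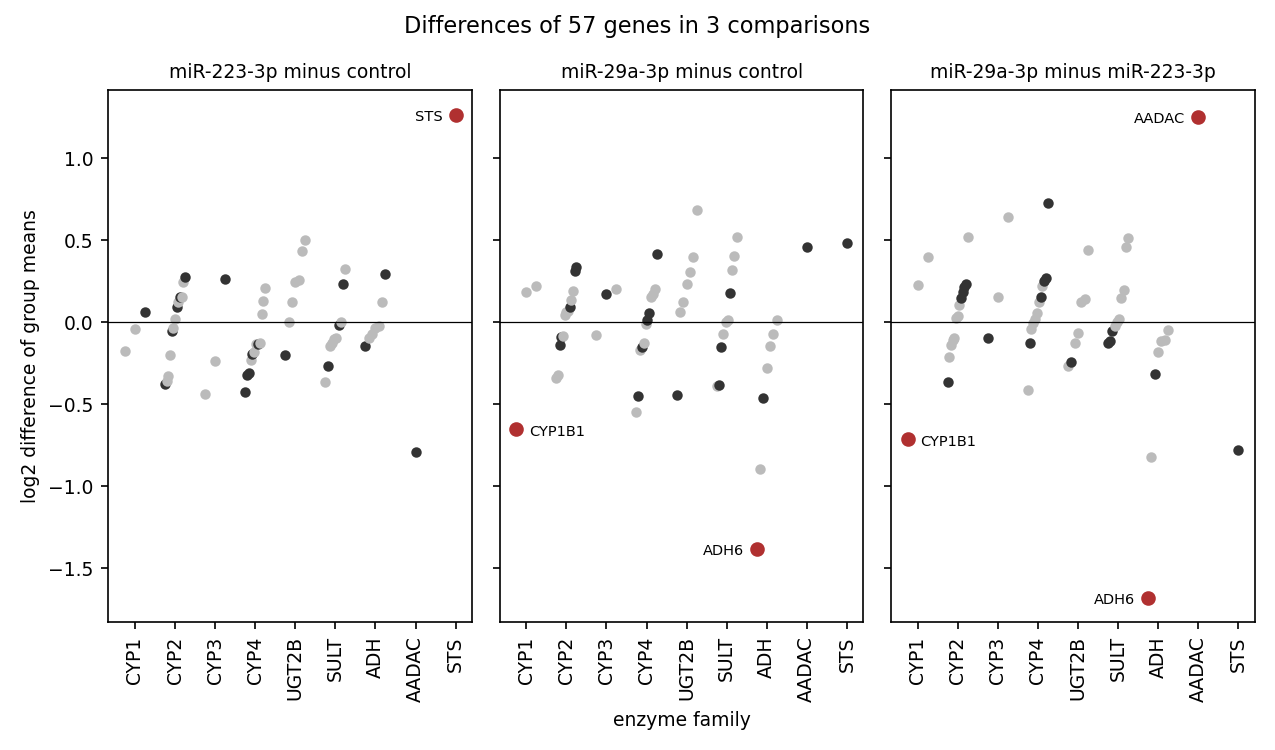
Log2 differences of group means for the 57 genes by family in the 3 comparisons; red, past the limma test with the intensity trend, dark grey, control mean above the olfactory receptor 95th percentile, light grey, at or below it. Apart from the labelled red points for STS, ADH6, CYP1B1 and AADAC, all points lie between -0.895 (ADH4) and 0.725 (CYP4V2).

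Against control, the miR-29a-3p mimic had its largest differences in ADH6 and ADH4, both alcohol dehydrogenases. ADH6 (gene ID 130, GRCh38 chromosome 4, 99202639 to 99219246) read 7.94 and 7.39 in control, 6.09 and 6.47 with miR-29a-3p, and 8.24 and 7.68 with miR-223-3p. Both miR-29a-3p samples lay below all 4 others, and the control and miR-223-3p samples overlapped. Its signal was 2.61-fold lower than in control (log2 difference -1.385, standard error 0.27, adjusted p = 0.179, and 0.0166 with the intensity trend). Against the miR-223-3p group it was 3.20-fold lower (-1.68, adjusted p = 0.066, and 0.00167 with the trend). Against control the trend call was lost without control A (0.245), miR-29a-3p A (0.179) or miR-29a-3p B (0.0643), and between the mimics without miR-29a-3p A (0.0507).

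ADH4, a class II dehydrogenase that acts on ethanol and retinol, read 4.86 and 4.08 in control, 3.60 and 3.55 with miR-29a-3p, and 4.47 and 4.32 with miR-223-3p. The miR-29a-3p samples again lay below the other 4, but all values were under the dim-signal line and the difference from control (-0.895, standard error 0.256) did not pass (adjusted p = 0.351, and 0.189 with the trend). It was -0.505 without control A and -1.285 without control B. ADH5 read 11.40 and 11.53 in control, 11.02 and 10.99 with miR-29a-3p, and 11.28 and 11.36 with miR-223-3p. Its difference of -0.46 (standard error 0.173, 95% interval -0.854 to -0.0663) did not pass either, with an adjusted p of 0.497, and 0.179 with the trend.

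ADH5, ADH4 and ADH6 stand next to each other, in this order, at one end of the ADH cluster on chromosome 4. The others, ADH1A, ADH1B, ADH1C and ADH7, had control means from 3.145 to 4.09 and differed from control by -0.28 to 0.01 with miR-29a-3p. At such signals a lower level may not be measurable. For the cluster as a whole 6 of 7 genes lay below control with miR-29a-3p, 3 of them with groups that did not overlap (18.8% of all genes were lower in this way), and the median difference was -0.28. Between the mimics all 7 were lower with miR-29a-3p, 4 of them without overlap (19.5% of all genes). For ADH1A, ADH1B, ADH1C and ADH7 these differences were only -0.185 to -0.05, and ADH1C (-0.185) was 1 of the 4 without overlap. Whether the ADH probe sets share signal was not analysed. ALB, also known mainly from liver, read 8.5 and 7.41 in control, 6.77 and 7.06 with miR-223-3p and 6.06 and 6.77 with miR-29a-3p. Of the 19 measured genes of the hepatocyte list 11 lay above control and 8 below with miR-29a-3p, with a median difference of 0.07. Only 6 of the 19 lay above the dim-signal line, and a lower level of the others may not be measurable. These counts therefore cannot show whether the list followed ALB. The list also shares 2 genes, CYP3A4 and CYP2E1, with the enzyme group. A link between ALB and the ADH genes was not tested. The genes on either side, chosen by position after these values were seen, were TSPAN5 (-0.235), EIF4E (0.065) and METAP1 (0.145) before ADH5, and C4orf17 (-0.03), TRMT10A (-0.78) and MTTP (-0.105) after ADH7, as log2 differences between miR-29a-3p and control. TRMT10A, a transfer RNA methyltransferase, read 8.69 and 8.44 in control and 7.63 and 7.94 with miR-29a-3p. It did not pass against control (adjusted p = 0.288, and 0.109 with the trend) and passed between the mimics with the trend (adjusted p = 0.0195). RefSeq also places a long non-coding RNA, LOC100507053, from 99088857 to 99301356, across ADH4, ADH6 and ADH1A, and it was not among the genes tested.

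**Figure D3:**
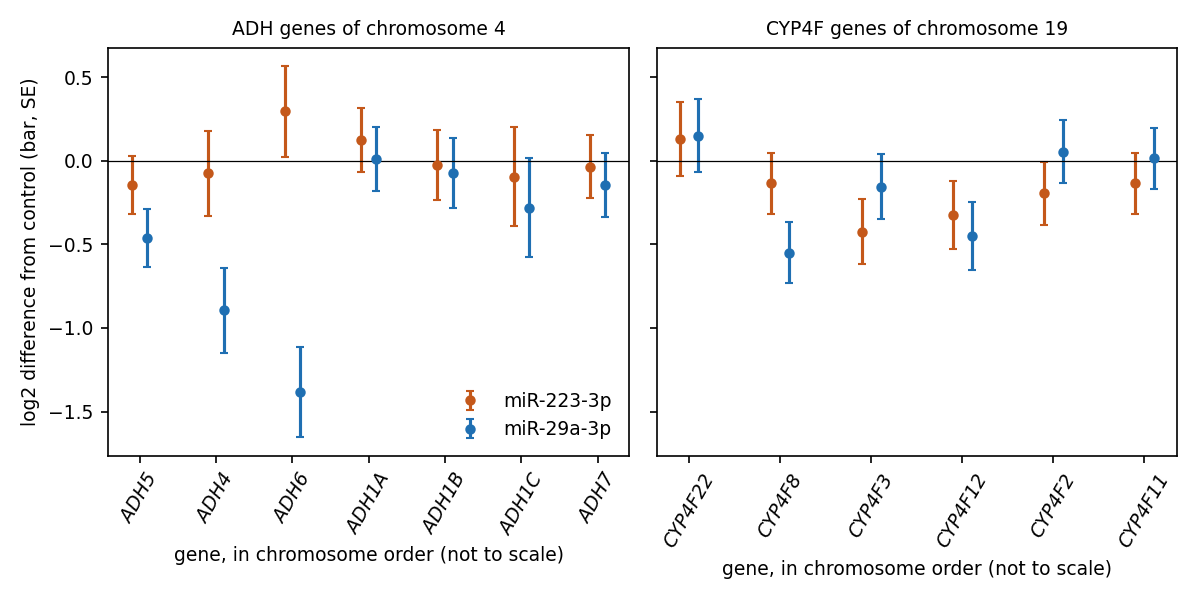
Log2 difference from control of the ADH genes (left) and CYP4F genes (right) in chromosome order, with standard errors of the moderated test; orange, miR-223-3p, blue, miR-29a-3p. ADH5, ADH4 and ADH6 lie below 0 with miR-29a-3p and the other ADH genes between -0.28 and 0.01; of the CYP4F genes CYP4F8 (-0.55) and CYP4F12 (-0.45) lie lowest with miR-29a-3p, neither past the test.

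The upstream sequences of these 3 ADH genes are shown because they are neighbours with lower values in the same samples. Each run holds the 250 bases before the RefSeq start (GRCh38.p14, minus strand), 5′ to 3′, with capitals at matches on either strand to 3 short motifs. The first, TATAAA, is the core promoter element that positions the start of transcription in many tissue-specific genes. The second, CCAAT, is bound by the trimeric factor NF-Y in many promoters. The third, CCGCCC, is known as the GC box and is bound by factors of the SP family. The windows are chr4:99088789-99089038 for ADH5, chr4:99144298-99144547 for ADH4 and chr4:99219247-99219496 for ADH6.
ADH5: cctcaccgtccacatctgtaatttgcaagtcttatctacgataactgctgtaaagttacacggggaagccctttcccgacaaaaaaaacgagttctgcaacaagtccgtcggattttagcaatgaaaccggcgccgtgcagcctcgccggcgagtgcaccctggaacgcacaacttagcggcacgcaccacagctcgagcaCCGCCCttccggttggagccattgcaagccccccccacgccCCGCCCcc
ADH4: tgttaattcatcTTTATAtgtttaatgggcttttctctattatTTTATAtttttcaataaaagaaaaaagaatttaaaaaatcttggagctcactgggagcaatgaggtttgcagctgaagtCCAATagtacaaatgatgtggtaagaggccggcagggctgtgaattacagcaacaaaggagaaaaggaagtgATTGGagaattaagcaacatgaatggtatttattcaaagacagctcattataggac
ADH6: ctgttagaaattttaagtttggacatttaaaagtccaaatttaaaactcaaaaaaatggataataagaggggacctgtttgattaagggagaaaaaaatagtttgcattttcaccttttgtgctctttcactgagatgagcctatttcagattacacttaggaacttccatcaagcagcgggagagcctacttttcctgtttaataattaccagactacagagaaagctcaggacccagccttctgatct
ADH5 had 21 CpG dinucleotides, 58% G and C, and 2 matches to CCGCCC, a motif found in 42.6% of the 35116 RefSeq windows of this length. ADH4 and ADH6 had 1 CpG each and 34% and 36.4% G and C, against medians of 11 and 58% over all windows. ADH4 held 2 matches each to TATAAA (in 10.7% of windows) and CCAAT (32.0%). ADH6 held none of the 3. The upstream windows of these neighbours therefore share no listed motif, and a match is a run of letters, not a shown site.

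CYP1B1 (gene ID 1545, chromosome 2, 38067509 to 38076151) was the P450 gene past the trend test. It read 12.69 and 12.68 in control, 12.82 and 12.67 with miR-223-3p, and 12.04 and 12.02 with miR-29a-3p. The samples of each group lay close together and the miR-29a-3p samples below the other 4. The signal was 1.57-fold lower than in control (log2 difference -0.655, standard error 0.172, adjusted p = 0.31, and 0.0147 with the intensity trend) and 1.64-fold below the miR-223-3p group (-0.715, adjusted p = 0.191, and 0.00346 with the trend). Against control the trend call was lost without control A (0.132), control B (0.0957), miR-29a-3p A (0.0971) or miR-29a-3p B (0.107), while the difference kept to -0.665 to -0.645. Between the mimics it was lost without miR-223-3p A (0.056). The receptor that induces CYP1B1, AHR, read 15.79 and 15.66 in control and 15.49 and 15.28 with miR-29a-3p, and its partner ARNT 11.12 and 11.18 against 10.72 and 10.47. Neither passed (AHR -0.34, adjusted p = 0.637, and ARNT -0.555, adjusted p = 0.517). The other CYP1 genes, CYP1A1 (0.185) and CYP1A2 (0.22), were dim and their mean lay above control with miR-29a-3p, with overlapping groups. The part of AHR in the CYP1B1 difference was not tested.

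STS (gene ID 412, chromosome X, 7147290 to 7354641) had the largest difference with miR-223-3p. It read 6.12 and 6.87 in control, 7.70 and 7.82 with miR-223-3p, and 7.05 and 6.91 with miR-29a-3p. The miR-223-3p samples lay above the other 4, and the control samples were far apart. Its signal was 2.40-fold higher with miR-223-3p than in control (log2 difference 1.265, standard error 0.252, adjusted p = 0.297, and 0.0328 with the intensity trend). The trend call was kept without control B (0.0276) and lost without control A (0.484), miR-223-3p A (0.126), miR-223-3p B (0.238), miR-29a-3p A (0.0628) or miR-29a-3p B (0.0624), and when the compared groups alone were fitted (0.0617). With miR-29a-3p it was 0.485 above control (adjusted p = 0.623), and the difference between the mimics (-0.78) did not pass (adjusted p = 0.335, and 0.205 with the trend).

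AADAC (gene ID 13, chromosome 3, 151814116 to 151828488), an esterase of the endoplasmic reticulum, read 6.62 and 6.19 in control, 5.82 and 5.41 with miR-223-3p, and 6.64 and 7.09 with miR-29a-3p. The 3 groups did not overlap, with miR-223-3p lowest and miR-29a-3p highest. Against control the differences were -0.79 with miR-223-3p (adjusted p = 0.532, and 0.353 with the trend) and 0.46 with miR-29a-3p (0.632 and 0.666). Between the mimics the signal was 2.38-fold higher with miR-29a-3p (log2 difference 1.25, standard error 0.247, adjusted p = 0.113, and 0.0243 with the trend). That call was lost without miR-223-3p B (0.243), miR-29a-3p A (0.0634) or miR-29a-3p B (0.246).

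**Figure D4:**
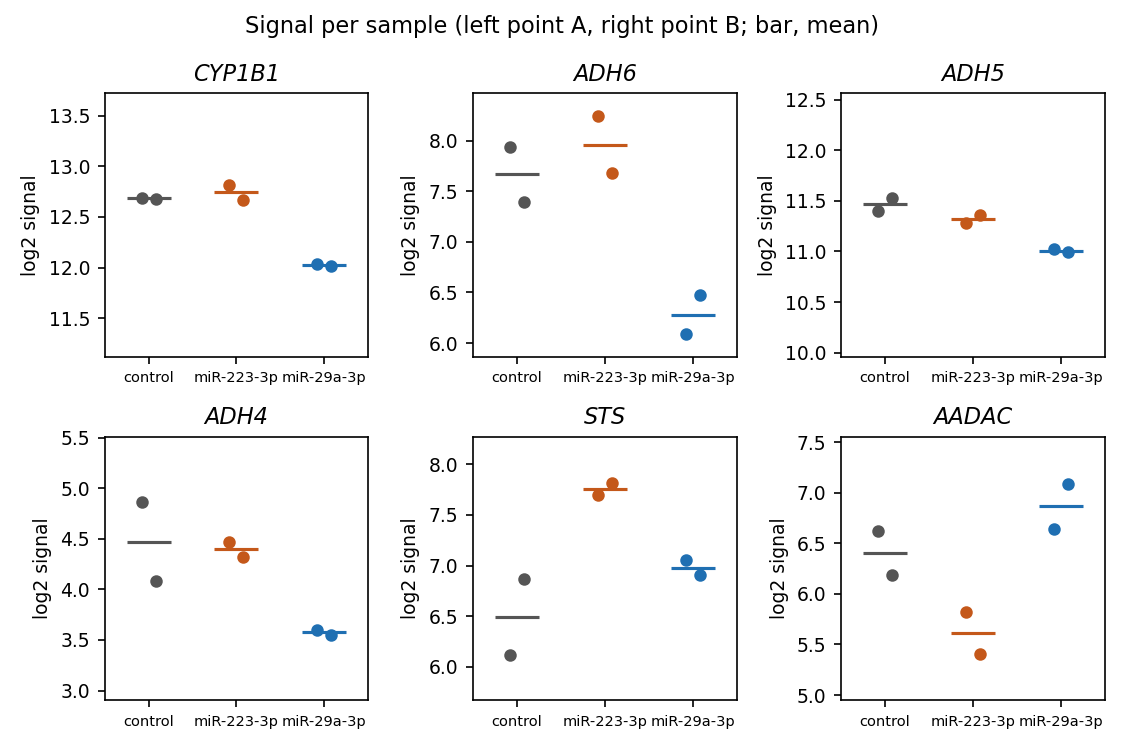
Log2 signal in each of the 6 samples for CYP1B1, ADH6, ADH5, ADH4, STS and AADAC; in each group the left point is sample A, the right point sample B and the bar their mean, and all panels span the same log2 range. The miR-29a-3p samples lie lowest for CYP1B1, ADH6, ADH5 and ADH4, and the miR-223-3p samples lie highest for STS and lowest for AADAC.

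Counted over the group, with miR-223-3p against control 33 of 57 genes lay lower and 22 higher, with a median difference of -0.04. The samples did not overlap for 9 higher genes (15.8%, against 18.7% of all genes) and 12 lower genes (21.1%, against 18.2%). No member was called with the constant prior, where 0% of all genes were, and 1 of 57 (1.75%) with the intensity trend, where 0.684% of all genes were. With miR-29a-3p against control 32 lay higher and 24 lower, and the median was 0.045. Groups did not overlap for 13 higher genes (22.8%, against 19% of all genes) and 8 lower genes (14.0%, against 18.8%). None was called with the constant prior (0.0113% of all genes) and 2 of 57 (3.51%) with the trend (1.03% of all genes). Between the mimics 12 genes were higher without overlap (21.1%, against 19.2%) and 11 lower (19.3%, against 19.5%). None was called with the constant prior (0.221% of all genes) and 3 of 57 (5.26%) with the trend (1.94% of all genes). The shares called rest on 1 to 3 genes. The shares without overlap differed by signal. Of the 20 members above the dim-signal line, with miR-223-3p 25% were higher and 35% lower without overlap, against 19.1% and 20.4% of all genes above it. With miR-29a-3p these shares were 20% and 30%, against 20.1% and 20.9%, and between the mimics 30% and 25%, against 21.7% and 21.3%. Of the 37 dimmer members 10.8% and 13.5% were higher and lower with miR-223-3p, 24.3% and 5.41% with miR-29a-3p, and 16.2% each between the mimics. These shares of small sets were not tested.

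Among the other P450 genes, the bright CYP4F genes did not pass in any comparison. CYP4F11 read 15.22 and 15.27 with miR-223-3p and 15.52 and 15.27 with miR-29a-3p. The 95% intervals of its difference from control ran from -0.551 to 0.281 and from -0.401 to 0.431. CYP4F3 read 12.32 and 11.93 with miR-223-3p, below both control samples (difference -0.425, standard error 0.195, adjusted p = 0.675). With miR-29a-3p it read 12.45 and 12.34. CYP4F2 read 12.65 and 12.34 with miR-223-3p and 12.71 and 12.78 with miR-29a-3p, and both groups overlapped control. With miR-29a-3p, CYP4F8, known for hydroxylating prostaglandins, read 3.74 and 3.95 against 4.45 and 4.34 in control and 4.18 and 4.34 with miR-223-3p (-0.55 from control, adjusted p = 0.431), under the dim-signal line throughout. CYP4F12 read 6.62 and 6.43 in control, 6.20 in both miR-223-3p samples and 5.86 and 6.29 with miR-29a-3p (-0.45, adjusted p = 0.577). Over the 12 CYP4 genes 9 lay lower with miR-223-3p, 5 without overlap (18.2% of all genes were lower in this way), and none passed in either fit.

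CYP4V2 was the P450 gene with the largest positive difference between the mimics among those without overlap. It read 8.91 and 8.95 with miR-223-3p and 9.96 and 9.35 with miR-29a-3p, with the control samples between them (0.725, standard error 0.226, adjusted p = 0.325, and 0.0925 with the trend). CYP2S1 read 11.54 and 11.64 with miR-223-3p and 11.85 and 11.70 with miR-29a-3p, 0.335 above control in the second case (adjusted p = 0.629). CYP2R1 read 7.58 in both miR-223-3p samples and 7.82 and 7.81 with miR-29a-3p, and its difference of -0.375 from control with miR-223-3p was -0.06 without control A and -0.69 without control B. CYP2U1, a fatty acid hydroxylase, read 5.98 and 7.11 with miR-223-3p, a range that held the other 4 samples (6.40 and 6.98 with miR-29a-3p). CYP3A43, a minor CYP3A member, was dim and read 3.28 and 3.68 in control, 3.02 and 3.06 with miR-223-3p and 2.76 and 4.60 with miR-29a-3p. The remaining P450 genes passed in no comparison, with log2 differences from control between -0.36 (CYP2A7) and 0.31 (CYP2J2).

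The conjugating enzymes showed small differences at low signal. With miR-29a-3p 6 of 7 UGT2B genes lay above control, 4 without overlap (19% of all genes were higher in this way), and with miR-223-3p 5 of 7, 2 without overlap (18.7% of all genes). Only UGT2B4 was above the dim-signal line and its mean was lower with both mimics, at 4.96 and 5.40 with miR-223-3p and 5.31 and 4.56 with miR-29a-3p, overlapping control. UGT2B7, which glucuronidates opioids and steroids, read 2.79 and 3.35 in control, 3.37 and 3.26 with miR-223-3p and 3.94 and 3.57 with miR-29a-3p (0.685 from control, adjusted p = 0.46). UGT2B17, an androgen-conjugating enzyme, read 3.39 and 2.96 in control, 3.40 and 3.41 with miR-29a-3p and 3.92 and 3.43 with miR-223-3p (0.50 from control, adjusted p = 0.675). UGT2B11 read 3.48 and 3.51 in control, 3.58 and 4.02 with miR-29a-3p and 4.05 and 3.81 with miR-223-3p (0.435 from control, adjusted p = 0.686). UGT2B genes are near-identical copies in part, so these probe sets may share signal and their like direction is not independent.

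Of the sulfotransferases none passed. SULT1A1 read 8.77 and 8.94 with miR-223-3p and 8.90 and 8.70 with miR-29a-3p, 0.235 and 0.18 above control, with 95% intervals from -0.193 to 0.663 and from -0.248 to 0.608. SULT2A1, the dehydroepiandrosterone sulfotransferase, was dim and read 3.64 and 3.49 in control, 3.66 and 4.12 with miR-223-3p and 3.74 and 4.43 with miR-29a-3p. SULT1C2 read 3.82 and 4.0 in control, 3.72 and 3.81 with miR-223-3p and 4.27 and 4.18 with miR-29a-3p (0.46 between the mimics, adjusted p = 0.417). SULT1C3 read 3.32 and 3.30 in control, 2.95 and 3.46 with miR-223-3p and 3.76 and 3.67 with miR-29a-3p (0.51 between the mimics, adjusted p = 0.452). For both genes the miR-29a-3p samples lay above the other 4, all at dim signal. SULT2B1 read 5.44 and 6.58 with miR-223-3p and 6.05 and 5.71 with miR-29a-3p. SULT4A1 read 4.80 and 5.58 with miR-223-3p and 5.19 and 4.96 with miR-29a-3p. For both genes the miR-223-3p samples lay further apart than any pair of group means.

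Partner genes of these enzymes were counted in 6 lists, and no gene of them passed with the constant prior. With the trend 0.684% of all genes were called with miR-223-3p against control, 1.03% with miR-29a-3p against control and 1.94% between the mimics, and each list had at most 2 calls in a comparison. With the intensity trend, miR-223-3p against control called 1 of 18 genes for electron donors and cofactors, CYB5A, the cytochrome b5 that passes electrons to P450 enzymes. It read 12.42 and 12.01 in control, 11.20 and 11.19 with miR-223-3p and 11.63 and 11.93 with miR-29a-3p (difference with miR-223-3p -1.02, adjusted p = 0.319, and 0.00265 with the trend). Among 53 other phase I enzymes EPHX1, the microsomal epoxide hydrolase, was called lower (-0.50), and among 43 other phase II enzymes NNMT, a nicotinamide methyltransferase, was called lower (-1.005). With miR-29a-3p against control, GSTA4, a glutathione transferase for lipid peroxidation products, was called lower (-1.085) and AS3MT, an arsenic methyltransferase, higher (0.985).

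Between the mimics the steroid list of 28 genes had 1 call, SLCO2B1, a carrier of sulphated steroids. It read 5.94 and 6.32 with miR-223-3p, 7.61 and 7.97 with miR-29a-3p, and 6.03 and 7.12 in control (1.66 between the mimics, adjusted p = 0.123, and 0.00584 with the trend). ALDH3A1 (0.625) and NNMT (0.985) were called higher and GSTA4 (-0.925) lower with miR-29a-3p. None of 31 transcription factors of xenobiotic response and lineage and none of 21 genes of other P450 families passed in any comparison in either fit. At an unadjusted p under 0.05 in limma the factors had 1, 5 and 2 genes and the other P450 families 2, 1 and 0, in the order miR-223-3p, miR-29a-3p and between the mimics, where 7.59%, 8.86% and 10.3% of all genes had such a p.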

How the data were processed

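The authors deposited 1 log2 value per probe set and array, made with RMA per the submitters' processing notes, which also name the build hg38. RMA corrects background and gives arrays a common distribution, so a change in total messenger RNA cannot be seen, and differences of dim probe sets are pulled toward 0. The platform's annotation named 17709 of 21448 probe sets, and all genes matched RefSeq (GRCh38.p14), the source of coordinates and sequences. Where a gene had more than 1 probe set, the brightest on average entered the fit.

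Groups came from the sample titles. All 6 samples entered 1 limma 3.58.1 fit in R 4.3.3 (3 residual degrees of freedom), with Benjamini-Hochberg adjustment over 17687 genes at 0.05, tested on simulated data. The number of arrays limits the precision. Named members are STS, AADAC, those called in either fit, the 4 largest rises and 4 largest falls per comparison without overlap, and up to 8 per family above the olfactory receptor line; a few others are named by position or role. Partners named are those called, with AHR and ARNT chosen for their role. The members, lists and tests were chosen with earlier results of these data known.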

Additional observations from a re-analysis of the deposited data

How the results depend on the processing

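With the constant prior the number of enzyme genes called was 0 in each of the 3 comparisons. It became 1 (STS), 2 (ADH6 and CYP1B1) and 3 (AADAC, ADH6 and CYP1B1) with the intensity trend, and 1 (ADH6, between the mimics) without dim genes, where 11168 genes were tested. It was 0 under the robust prior, a second quantile normalization, median centring, all probe sets, the compared groups alone and each sample left out. Among fits with the trend, combined with other choices after seeing the data, the STS call fell to 0 when the compared groups alone were fitted, and all counts fell to 0 with the constant prior. Leaving out each sample gave 0 to 1 member for miR-223-3p, 0 to 2 for miR-29a-3p and 2 to 3 between the mimics, where CYP3A43 was called without miR-29a-3p A and CYP4V2 without miR-29a-3p B. With the letters A and B as a replicate block the counts were 0 with the constant prior and 1, 2 and 3 with the trend, the same genes as without it. The differences between A and B correlated across groups at 0.0039 to 0.134, so the letters were not taken as pairs. For the 25 named members 944 of 1023 recomputed differences moved by less than the residual SD and kept their side of the threshold, 72 moved further, each on leaving out a sample, and 7 gained a call. Over all genes the calls were 0, 2 and 39 with the constant prior, 121, 182 and 344 with the trend, 3, 17 and 107 without dim genes and 0 with the block, and 145, 276 and 460 with the trend and the block. Between the mimics the constant prior gave 1 when the compared groups alone were fitted and 0 to 1 on leaving out a sample, so the 39 calls rest on all 6 samples. With miR-29a-3p against control it gave 0 to 2. With the trend, leaving out a sample gave 42 to 99, 45 to 189 and 141 to 336. Partner calls were not recomputed. No background correction was tried, since probe intensities were not used here.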
